A study of Drosophila melanogaster with 2 samples.

Results

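The genes described here encode the proteins of the cytosolic small ribosomal subunit of Drosophila melanogaster. They were taken from the Ensembl annotation by symbol, as RpS followed by a digit, which gave 38 of 18164 annotated genes. All 38 belong to the 13945 protein-coding genes. The question was where CG4707, tagged with GFP at its C terminus, lay near their transcription start sites (TSSs). Chromatin immunoprecipitation with sequencing (ChIP-seq) had been carried out on whole embryos of 0 to 14 h, pooled over both sexes, from a transgenic line that stably expresses the fusion protein. There was 1 group, with 2 biological replicates numbered 2 and 3, and no second genotype, treatment or stage. The labels do not state what drives the transgene, and whole embryos mix all cell types, so occupancy in a few cells and weaker occupancy in many cannot be told apart. A free-text label names the libraries as input control while their assay, antibody and title fields describe an immunoprecipitation, and the latter reading is used. Only region lists were used, so the sequencing depth is unknown. All coordinates are on dm6.

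The small subunit binds the messenger RNA, scans for the start codon and monitors the pairing of codon and transfer RNA. Its proteins are made in near-equal amounts and their genes are among the most strongly transcribed in growing cells. In flies, loss of a single copy of many of these genes gives the Minute phenotype of slow development and short bristles. Most of their messages start with a run of pyrimidines, and transcription begins at a special initiator, the TCT motif, in place of the usual initiator of RNA polymerase II genes.

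The stretches around the start sites show the initiator and how the paralogs differ there. Each line gives 60 bases before the annotated TSS of the canonical transcript and 20 from it, 5′ to 3′ on the strand of the gene, from the Release 6 genome (dm6). Capitals mark matches to the initiator, searched on the strand of the gene as NCTTTN, where N is C or T, with the C before the TTT within 10 bp of the TSS. Matches farther away stay in lower case, such as tctttt just beyond that limit in the line of RpS28a. RpS27 had the highest peak, RpS25 and RpS3A stand for strong peaks, and RpS3 and RpS13 had no peak. The remaining lines set paralogs side by side, the member with the stronger signal before its partner.
RpS27 (chr3R:25247495-25247574, minus strand): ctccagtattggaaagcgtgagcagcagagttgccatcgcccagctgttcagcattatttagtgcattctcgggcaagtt
RpS25 (chr3R:11216268-11216347, minus strand): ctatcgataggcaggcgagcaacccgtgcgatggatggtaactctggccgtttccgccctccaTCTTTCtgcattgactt
RpS3A (chr4:67188-67267, minus strand): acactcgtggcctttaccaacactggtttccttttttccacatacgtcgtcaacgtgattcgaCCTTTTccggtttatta
RpS3 (chr3R:23358752-23358831, plus strand): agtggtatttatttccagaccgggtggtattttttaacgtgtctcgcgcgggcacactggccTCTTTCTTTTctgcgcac
RpS13 (chr2L:8364643-8364722, minus strand): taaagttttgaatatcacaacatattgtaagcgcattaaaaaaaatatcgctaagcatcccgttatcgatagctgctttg
RpS28b (chrX:9554563-9554642, plus strand): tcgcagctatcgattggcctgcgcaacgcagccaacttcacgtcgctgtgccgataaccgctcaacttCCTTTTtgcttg
RpS28a (chr3R:30022629-30022708, minus strand): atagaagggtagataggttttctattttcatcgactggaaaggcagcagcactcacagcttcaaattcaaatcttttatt
RpS10b (chrX:19597980-19598059, plus strand): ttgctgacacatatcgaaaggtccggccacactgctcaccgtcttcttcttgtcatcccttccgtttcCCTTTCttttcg
RpS10a (chr3R:27652700-27652779, plus strand): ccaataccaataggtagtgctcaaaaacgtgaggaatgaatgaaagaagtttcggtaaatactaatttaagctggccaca
RpS19a (chrX:16637834-16637913, plus strand): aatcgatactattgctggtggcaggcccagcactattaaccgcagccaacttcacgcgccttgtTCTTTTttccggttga
RpS19b (chr3R:23933511-23933590, minus strand): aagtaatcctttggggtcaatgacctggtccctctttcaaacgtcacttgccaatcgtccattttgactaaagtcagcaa
RpS14a (chrX:7933682-7933761, plus strand): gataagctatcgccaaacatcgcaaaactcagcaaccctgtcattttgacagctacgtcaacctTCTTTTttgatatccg
RpS14b (chrX:7934838-7934917, plus strand): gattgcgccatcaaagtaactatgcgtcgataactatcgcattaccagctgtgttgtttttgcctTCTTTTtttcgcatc

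The initiator was more frequent at the small subunit genes than over all protein-coding genes. It lay within 10 bp of the canonical TSS in 21 of 38 small subunit genes (55.3%), against 2.88% of 13944 protein-coding genes with a complete window. The large subunit genes (RpL followed by a digit) held it in 32 of 50 (64%), so it is not particular to the small subunit. Among genes with a peak 17 of 25 held it (68%), and among those without a peak 4 of 13 (30.8%), including RpS3, RpS24 and RpS26. The annotated TSS rarely stood on the C itself, which was so only at RpS7 among the 17 genes with a peak. In the other 16 the C lay 2 to 9 bp downstream of the annotated TSS. Counting any annotated TSS of a gene, a setting chosen after the data were seen, 29 of 38 held the initiator (76.3%, against 4.09% of protein-coding genes), 22 of 25 with a peak (88%) and 7 of 13 without (53.8%). By that count 43 of 50 large subunit genes held it (86%). The difference between small subunit genes with and without a peak was not tested. The small subunit genes added were RpS27, RpS4, RpS16, RpS23, RpS9, RpS13, RpS29 and RpS30.

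A peak here is a region that passed the authors' reproducibility threshold, and a gene was counted when the summit of such a region lay within 500 bp of any of its TSSs. Peaks stood at 25 of 38 small subunit genes (65.8%, exact 95% interval 48.6 to 80.4, counting error only). The same rule took 10.5% of all annotated genes and 12% of protein-coding genes. Each of the 25 genes had its own peak. The 3470 peaks are the regions of highest signal among 30000 pooled regions, so weaker regions could be followed below the threshold. Of the 13 genes without a peak, 7 had a pooled region of lower signal at a TSS and 6 had none. A pooled region of any strength was found at 32 of 38 genes (84.2%), where the background was 43.3%. Genes of a family are not replicates of each other, and the members were chosen with results of these data known, so these shares are descriptions without a test.

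Replicate 2 alone had a region at 35 of 38 genes (background 45.1%), and replicate 3 alone at 33 (background 42%). Among the 3470 regions of highest signal, replicate 2 had 27 of the genes (background 10.9%) and replicate 3 had 22 (background 10.3%). Of the 25 genes with a peak, 21 were in that upper part of both replicates and 3 in that of replicate 2 only, among them RpS14a and RpS9. RpS14b was in that of neither replicate and qualified through the pooled list. Narrowing the window to 250 bp gave the same number of genes with a peak, 25 (background 7.93%), and widening it to 1000 bp gave 27 (background 13.5%), the additions being RpS28a and RpS19b. The most upstream TSS alone gave 25 (background 8.95%), and assigning each summit only to the gene of the nearest TSS gave 24 (background 8.15%). The peak interval itself covered a TSS at 24 genes (background 5.93%). Taking only the upper 50% of the peaks by signal left 20 genes (background 5.56%). For pooled regions of any strength, the count was 32 at 250 bp (background 34.4%), 36 at 1000 bp (background 52%) and 32 at the most upstream TSS (background 41.3%).

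**Figure D1:**
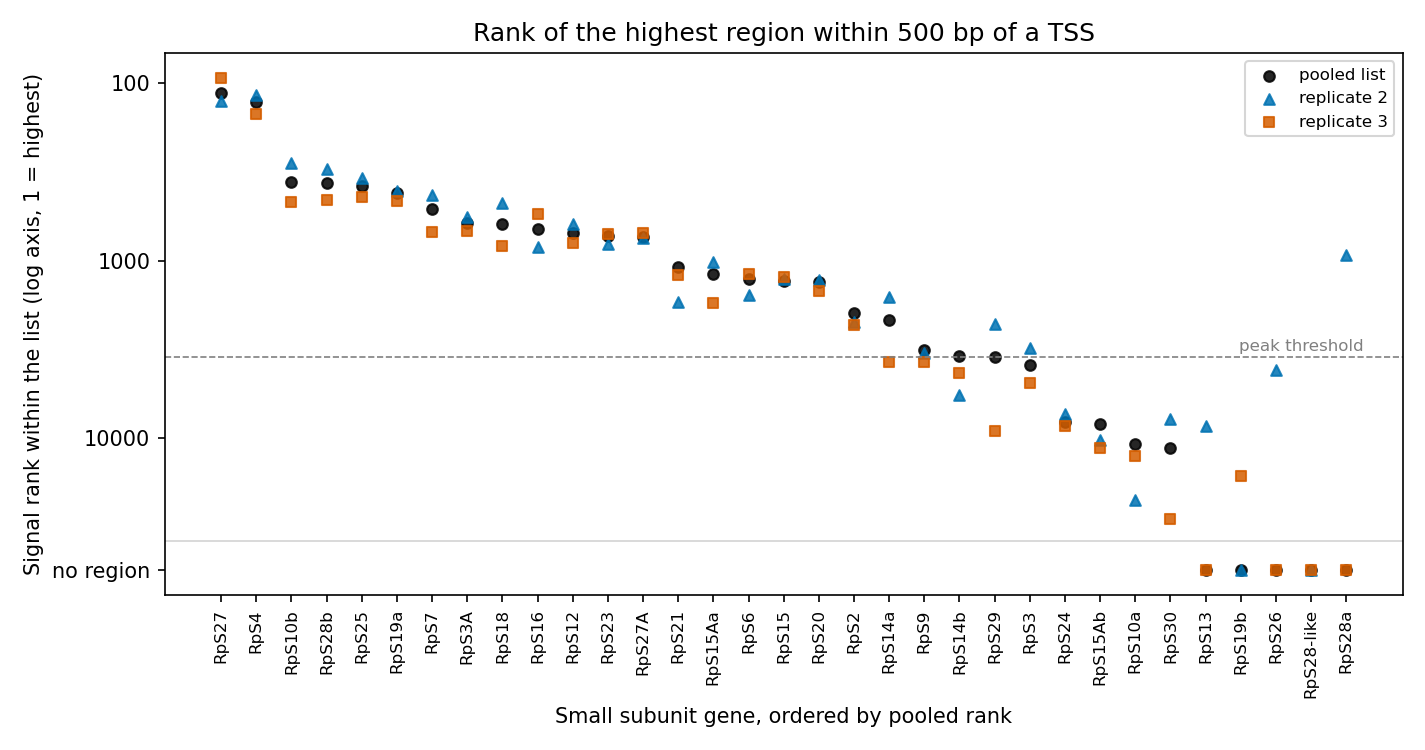
Rank of the highest region within 500 bp of a TSS for 33 of the 38 small subunit genes, on a log axis where 1 is the highest signal of 30000 regions, in the pooled list (circles), replicate 2 (triangles) and replicate 3 (squares). The dashed line is the peak threshold at rank 3470, and genes without a region are drawn at the bottom. RpS27 and RpS4 stand apart at the top, most genes keep close ranks in both replicates, and RpS28a has a region within 500 bp in replicate 2 alone, since the summit of replicate 3 lies at 511 bp.

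In the plot of ranks by gene, the members with a peak ran from rank 114 at RpS27 to rank 3448 at RpS14b, with a median of 733. Of the 25 peaks, 20 were in the upper 50% of the peak list by signal and 14 in the upper 25%. The signal is a score of the authors' caller in a unit that is not described, so it is read only within a list. Over the 32 genes with a region in every list, the ranks in replicates 2 and 3 had a Spearman correlation of 0.943, and over the 25 genes with a peak of 0.927. These are descriptions across genes that share both libraries. Of the 32 genes, 22 ranked higher in replicate 2 and 10 in replicate 3.

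By the place of the protein in the subunit, known from structures of eukaryotic ribosomes, 19 genes encode proteins of the head and 19 proteins of the body and platform. Peaks stood at 12 of the 19 head genes, with a median rank of 677.5, and at 13 of the 19 body and platform genes, with a median rank of 1181. Both shares were above the 10.5% of all annotated genes, and they differed by 1 gene. Ranks spread more widely over the body and platform genes, from 114 to 3448, than over the head genes with a peak, from 360 to 1319.

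Among the head proteins, RpS10b, which sits at the beak of the subunit, had the strongest peak (X, 19597915 to 19598180). Its signal was 448 in the pooled list (rank 360), 247 in replicate 2 (rank 282) and 209 in replicate 3 (rank 465). RpS28b, which contacts the message near the exit of its channel, had a pooled signal of 447 (rank 365; X, 9554462 to 9554723), with 241 in replicate 2 (rank 303) and 212 in replicate 3 (rank 452). These genes were close to each other in every list, and both stood higher in replicate 2. RpS25, needed by several viral internal ribosome entry sites, had a pooled signal of 441 (rank 379; 3R, 11216202 to 11216425), with 229 (rank 340) and 216 (rank 440) in replicates 2 and 3. RpS19a, whose human counterpart is mutated in Diamond-Blackfan anaemia, had 429 (rank 415; X, 16637769 to 16638009), with 214 (rank 404) and 210 (rank 463). The 4 strongest head genes thus lay close together in the pooled list, from rank 360 to rank 415, while the next head gene followed at rank 623.

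That gene was RpS18, which reaches the contact with the large subunit, with a pooled signal of 347 (2R, 20263870 to 20264102), 200 in replicate 2 (rank 470) and 153 in replicate 3 (rank 823). RpS16, whose C-terminal tail reaches the transfer RNA in the P site, had 334 (rank 660; 2R, 22606002 to 22606222), with 144 in replicate 2 (rank 833) and 192 in replicate 3 (rank 546). The replicates thus ordered these genes oppositely, RpS18 higher in replicate 2 and RpS16 higher in replicate 3. RpS12, which in flies is also required for the competitive elimination of Rp mutant cells, had 325 (rank 695), with 171 (rank 617) and 156 (rank 793). RpS27A, made as a fusion with ubiquitin, had 312 (rank 733), with 154 (rank 746) and 168 (rank 699). Weaker peaks followed, close to each other, at RpS15 and RpS20. RpS15, which lies near the decoding site, had a pooled signal of 218 (rank 1304), with 112 in replicate 2 (rank 1267) and 118 in replicate 3 (rank 1237). RpS20, in the head, had 217 (rank 1319), with 111 (rank 1280) and 106 (rank 1470).

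The body and platform genes held the 2 strongest peaks of the family. RpS27, a zinc-binding protein of the platform, had a signal of 868 in the pooled list (rank 114; 3R, 25247351 to 25247659), 382 in replicate 2 (rank 126) and 496 in replicate 3 (rank 93). RpS4, whose human counterpart is encoded on both sex chromosomes, had 794 in the pooled list (rank 127; 3L, 13041657 to 13041940), 404 in replicate 2 (rank 117) and 380 in replicate 3 (rank 150). The pair changed order between the replicates, and both stood above every other small subunit gene in every list. After them came RpS7, whose human counterpart is mutated in Diamond-Blackfan anaemia, with 384 (rank 508; 3R, 30208805 to 30209047), and the platform protein gene RpS3A with 351 (rank 611; 4, 67097 to 67337), the only member on chromosome 4. RpS7 had 209 (rank 427) and 169 (rank 687) in replicates 2 and 3, and RpS3A had 179 (rank 566) and 171 (rank 678). RpS23, a protein of the decoding centre, had 316 (rank 725), with 147 (rank 799) and 167 (rank 708).

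Weaker peaks followed at RpS21 (245, rank 1082), whose loss in flies gives overgrown imaginal discs and blood-forming organs, at RpS15Aa (232, rank 1181) and at RpS6 (223, rank 1272), the target of ribosomal S6 kinase. RpS21 had 94.2 in replicate 2 (rank 1704) and 122 in replicate 3 (rank 1195), RpS15Aa had 127 (rank 1010) and 95.9 (rank 1717), and RpS6 had 99.3 (rank 1551) and 122 (rank 1192). These 3 genes were thus above the peak threshold rank in both replicates, with the higher rank in replicate 2 only for RpS15Aa. RpS2, at the entry of the message channel, had 169 (rank 1973), with 80.8 in each replicate (ranks 2207 and 2285). RpS9, which also lies at the entry of the channel, had 126 (rank 3182), with 63.3 (rank 3325) and 59.8 (rank 3691). RpS9 was thus among the 3470 highest regions in replicate 2 and not in replicate 3.

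The threshold ran closely between members. The weakest pooled peak of the whole list had a signal of 117.998 and the strongest region below it 117.985. RpS14b, just inside, had 118.4 (rank 3448), with 44.7 in replicate 2 (rank 5713) and 54.8 in replicate 3 (rank 4274). RpS29, a zinc-binding head protein, was just outside with 117.7 (rank 3479), although replicate 2 gave it 79.4 (rank 2260) and replicate 3 gave it 35.0 (rank 9098). RpS3, which lines the entry of the message channel and also takes part in ribosome quality control, had 109 (rank 3883), with 65.9 (rank 3086) and 50.7 (rank 4876). RpS29 and RpS3 were both among the 3470 highest regions of replicate 2 and below rank 3470 in replicate 3.

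Far weaker regions below the threshold lay at RpS24, RpS15Ab, RpS10a and RpS30. RpS24, also a Diamond-Blackfan anaemia gene in humans, had 66.6 in the pooled list (rank 8100), with 38.1 (rank 7269) and 36.4 (rank 8506) in replicates 2 and 3. RpS15Ab had 65.4 (rank 8325), with 30.3 (rank 10183) and 30.8 (rank 11260). RpS10a had 54.5 (rank 10806), with 17.5 (rank 22320) and 29.0 (rank 12503), and RpS30, made as a fusion with a ubiquitin-like protein, had 52.8 (rank 11329), with 36.4 (rank 7788) and 17.6 (rank 28550). At RpS24, RpS15Ab and RpS10a both replicates were low, while at RpS30 replicate 3 stood much lower than replicate 2.

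The genes with no pooled region at a TSS included RpS13, RpS26, RpS19b, RpS28a and RpS28-like. RpS13, which forms a bridge to the large subunit, had a region within the window in replicate 2 only (signal 34.2, rank 8505, 30 bp downstream of a TSS). Its nearest summits in the pooled list (rank 13714) and replicate 3 (rank 10481) lay 528 and 529 bp upstream, just outside. RpS26, which contacts the message at the exit of its channel, likewise had a region in the window in replicate 2 only (55.1, rank 4118, 8 bp downstream), and its nearest pooled summit lay 1783 bp downstream of a TSS. RpS28a had a strong region in replicate 2 (134, rank 924), but with the summit 499 bp downstream of its TSS. The summits of replicate 3 (rank 2078) and of the pooled list (rank 1329), both at 511 bp, fell just outside the window. These summits all lay beyond the 3′ end of RpS28a. RpS19b had a weak region in replicate 3 (24.9, rank 16292, 150 bp upstream), and the nearest pooled summit stood 890 bp upstream (rank 862). RpS28-like had no region in either replicate, and its nearest pooled summit lay 703 bp downstream of its TSS. The values at RpS28a and RpS19b are why a wider window counted both.

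The summits sat on the start sites. Over the 25 genes with a peak, the median summit lay 2 bp downstream of the nearest annotated TSS of the gene, 12 summits lay within 10 bp and 23 (92%) within 50 bp. Among 1499 promoter peaks at no cytosolic ribosomal protein gene the median was 81 bp upstream and 23.5% lay within 50 bp. Upstream of the TSS lay 10 of the 25 summits and downstream 15. By annotation 17 were in the 5′ UTR of the gene, 7 upstream of the gene and 1 in an intron, that of RpS9. Where the most upstream TSS was used in place of the nearest, the median moved to 7 bp downstream and the share within 50 bp to 72%.

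**Figure D2:**
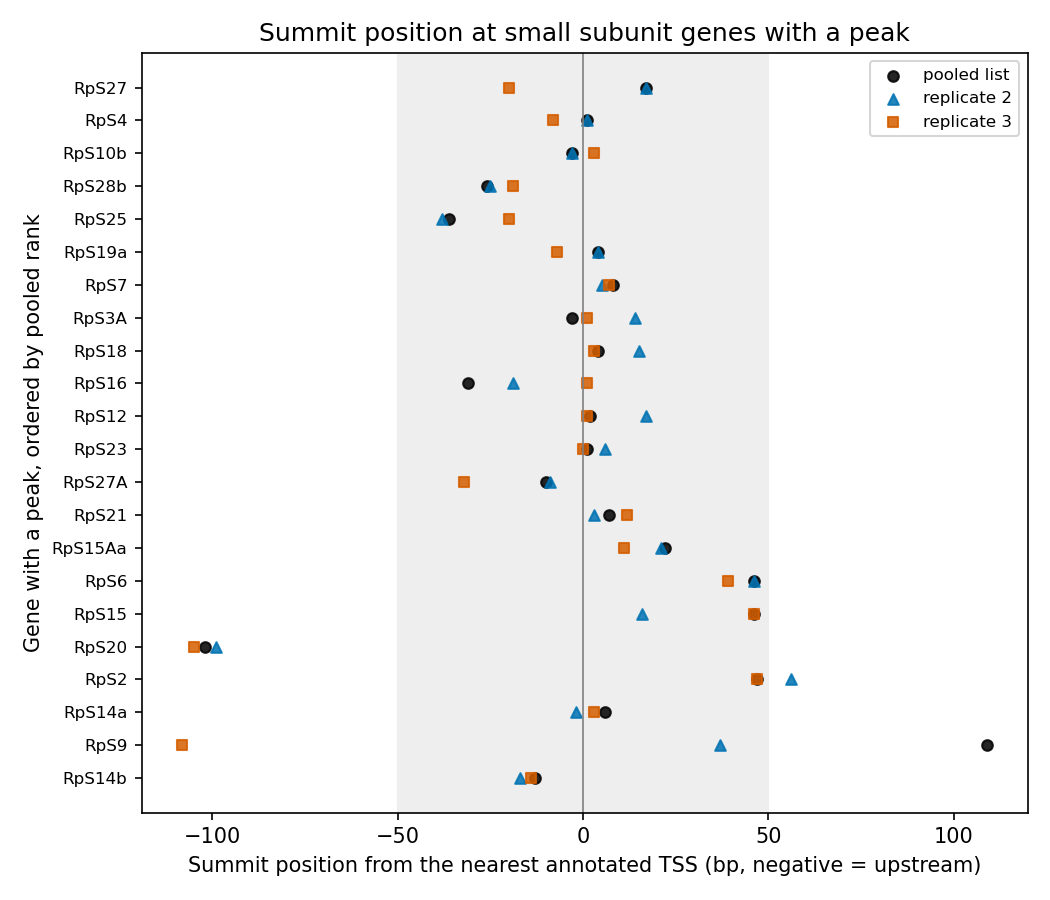
Position of the summit from the nearest annotated TSS of the gene, in bp with negative values upstream, at 22 of the 25 small subunit genes with a peak, in order of pooled rank, for the pooled list (circles) and replicates 2 (triangles) and 3 (squares). The shaded band spans 50 bp on either side of the TSS, and of the pooled summits only those of RpS20 and RpS9 lie outside it.

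In the plot of summit positions, the replicates mostly placed the summit at the same bases. All 25 genes with a peak had a summit in both replicates, with a median gap of 9 bp between them and a gap of at most 20 bp at 22 genes. At RpS23 the summit lay 1 bp downstream of the TSS in the pooled list, 6 bp downstream in replicate 2 and at the TSS in replicate 3. At RpS28b it lay 26 bp upstream in the pooled list, 25 bp upstream in replicate 2 and 19 bp upstream in replicate 3. RpS20 was the clear exception in place but not in agreement, with summits 102, 99 and 105 bp upstream in the same order. RpS9 was the exception in agreement. Its summit lay 109 bp downstream in the pooled list, 37 bp downstream in replicate 2 and 108 bp upstream in replicate 3, with a gap of 81 bp between the replicates on the genome, since the positions count from different TSSs.

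Relative to the initiator, the summits showed no fixed offset. Over the 17 genes with a peak and an initiator near the canonical TSS, the summit lay a median of 7 bp upstream of the C, from 41 bp upstream to 44 bp downstream, the latter at RpS6. It lay within 10 bp of the C at 5 genes, RpS14a, RpS19a, RpS18, RpS3A and RpS7, and within 50 bp at all 17. The chromatin had been sheared to 200 to 800 bp, per the labels, so these offsets are small against the fragments that were sequenced.

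Other sequence elements were counted within 100 bp of the canonical TSS on both strands. The DNA replication-related element (DRE, TATCGATA), bound by the transcription factor Dref, lay at 13 of 38 genes (34.2%), against 7.50% of protein-coding genes. Large subunit genes held it at 13 of 50 (26%). Among the small subunit genes it occurred at 8 of the 25 with a peak and at 5 of the 13 without, namely RpS13, RpS15Ab, RpS24, RpS29 and RpS30. Within 50 bp it was left at 4 genes (10.5%, against 5.29% of protein-coding and 14% of large subunit genes), RpS12, RpS13, RpS24 and RpS29. That was 1 of the 25 with a peak (4%) and 3 of the 13 without (23.1%). Motif 1 lay at RpS15 and RpS23 (5.26%, against 3.79%), the TATA box (TATAAA) at 5 genes (13.2%, against 28.9%) and the GAGA motif (GAGAG) at 5 (13.2%, against 22.8%). The 5 genes with a TATA match, RpS16, RpS23, RpS25, RpS27A and RpS3A, all had a peak. They were 20% of the 25 genes with a peak, below the 28.9% of protein-coding genes. No match lay within 50 bp of the TSS, against 17.0% of protein-coding genes.

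The letters CACTGTGC (GCACAGTG on the other strand) had come out of an earlier search of all peaks in the same data. They lay within 100 bp of none of the 38 canonical TSSs, against 0.939% of protein-coding genes, and within 100 bp of none of the pooled summits at these genes. At so low a share, none among 38 genes says little, and the large subunit genes had 0 of 50. The 6 letters ACAGTG, which that 8-mer contains, lay near 5 genes (13.2%, against 9.72%), namely RpS15, RpS15Aa, RpS18, RpS25 and RpS29. A match says only that the letters are present in the window, and their absence says nothing about the protein. The median GC content within 100 bp was 44.0% at the small subunit genes and 41.3% at protein-coding genes.

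Paralogs were compared within the family, with the identity of their proteins and of their start regions. The annotation holds 7 pairs, among them RpS10, RpS14, RpS15A and RpS19 with 2 genes each and RpS28b with RpS28a and with RpS28-like. Over all 7, identity of the aligned start regions ranged from 38.3% to 49.6%, so these were hardly alike, and all windows of 36 bases within 200 bp of the 38 TSSs occurred once in the genome. Reads of 36 bases or more could thus be placed there, while the read length is not given in the sources used here.

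In every pair but RpS14, the gene on the X had a peak and its autosomal partner had none. RpS10b had a pooled signal of 448 against 54.5 at RpS10a (72.9% identical), where the summit of that region was also 271 bp upstream. A weaker pooled region at RpS10a had its summit 65 bp upstream (28.0, rank 28123). RpS15Aa had 232 against 65.4 at RpS15Ab, though the proteins are 97.7% identical. The Lsm10 gene had the TSS nearest to the RpS15Ab summit. RpS19a had 429 while RpS19b (65.2% identical) had no pooled region. RpS28b had 447 while RpS28a (81.5% identical) and RpS28-like (38.2% identical) had none within 500 bp.

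RpS14a and RpS14b encode the same protein (100% identity over 151 residues), lie next to each other on the X and both had a peak. RpS14a had 160 in the pooled list (rank 2142), 98.0 in replicate 2 (rank 1591) and 59.6 in replicate 3 (rank 3707). RpS14b had 118, 44.7 and 54.8 in the same order. The pair differed clearly in replicate 2 and little in replicate 3, so with 2 replicates their order is not firm. Each had its own summit, 6 bp downstream of the TSS of RpS14a and 13 bp upstream of that of RpS14b.

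**Figure D3:**
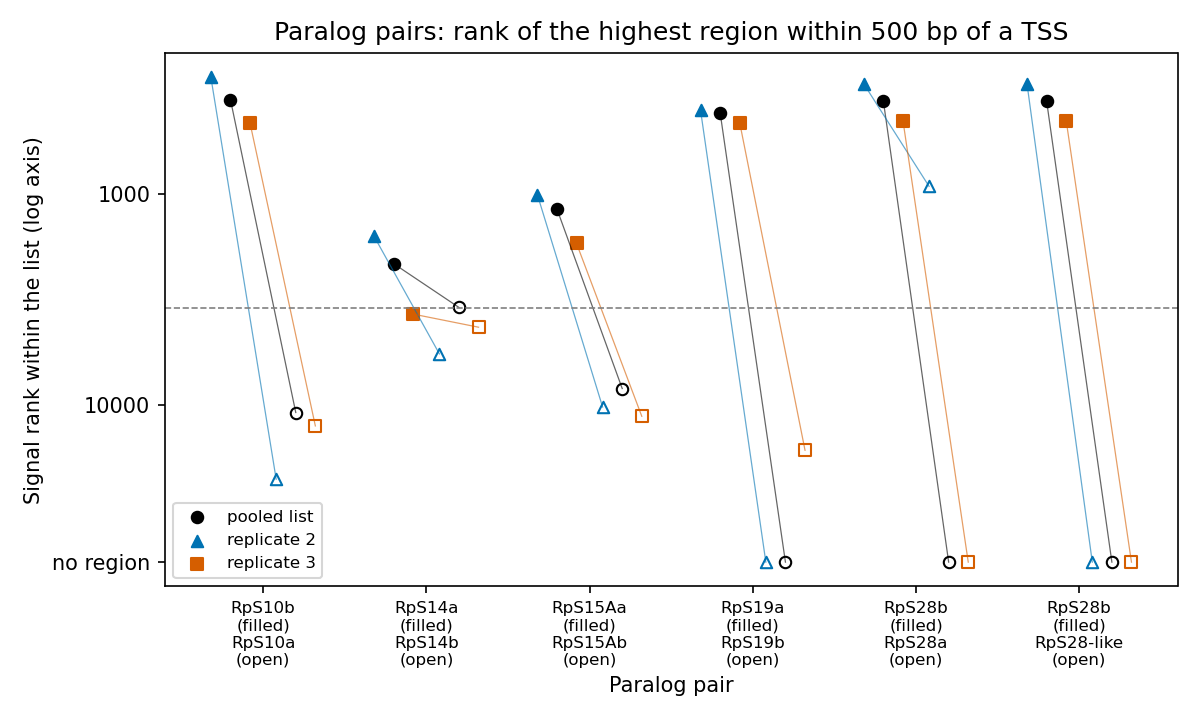
Rank of the highest region within 500 bp of a TSS for 6 of the 7 pairs of paralogs, on a log axis with the strongest at the top, with the gene of the stronger signal filled and its partner open. Lines join the pair within the pooled list (circles), replicate 2 (triangles) and replicate 3 (squares), and the dashed line is the peak threshold at rank 3470. Only RpS14a and RpS14b both have a pooled peak, and genes without a region are drawn at the bottom.

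In the plot of paralog ranks, RpS14b in the pooled list (rank 3448) and RpS28a in replicate 2 are the only partners above the threshold. RpS28a is there through the region whose summit lies 499 bp downstream of its TSS, beyond the 3′ end of the gene. Replicate 3 also had that region above the threshold (rank 2078), with the summit at 511 bp, outside the window. All 8 small subunit genes on the X had a peak, as did all 4 on 3L and RpS3A on chromosome 4. Peaks stood at 3 of 6 genes on 2L, 4 of 7 on 2R and 5 of 12 on 3R. The share of all genes with a peak was not counted by arm, so these counts cannot be called particular to the family. Of the 8 genes on the X, 7 belong to a paralog pair, so arm and paralog cannot be told apart in these counts.

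Several peaks belonged to more than 1 gene. Of the 25 peaks, 12 had a TSS of another gene within 500 bp of the summit, 10 of them of a protein-coding gene and 9 of a gene on the opposite strand. The same share over all promoter peaks was not counted, so sharing cannot be called a trait of the family. In all but 2 of these 12 the summit was nearer to the small subunit gene than to the neighbour. RpS27 shared its peak with Nup37, a nuclear pore gene (17 bp downstream of the RpS27 TSS, 161 bp upstream of that of Nup37), and with sisRNA:CR46364. For further neighbours the distance given is that of the summit upstream of the TSS of the neighbour. RpS25 shared its peak with CG4820 (212 bp), RpS18 with plu (299 bp) and RpS16 with CG4294 (429 bp). RpS21 shared it with CG3104 (299 bp), RpS20 with CG17271 (231 bp) and RpS14a with Dhdds (397 bp).

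RpS27A and Ip259 have the same annotated TSS position, so their summit lay 10 bp upstream of both and cannot be given to either. At RpS6 the summit was 46 bp downstream of its own TSS but 17 bp downstream of that of the pseudogene CR33222, and the small nucleolar RNA gene snoRNA:Or-aca2 lay there as well. RpS12 shared its peak with snoRNA:Me28S-A774b, a guide gene read from the same strand, whose TSS lay 226 bp downstream of the summit. For genes in head-to-head pairs, occupancy at the shared region does not say which of the pair it serves.

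**Figure D4:**
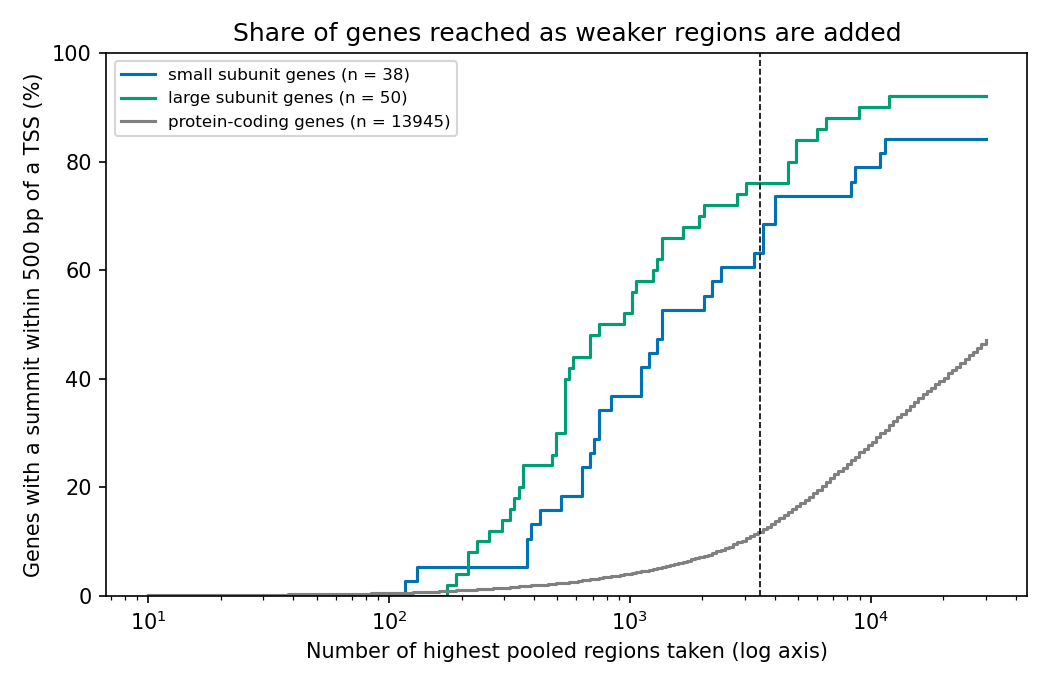
Share of the 38 small subunit genes, the 50 large subunit genes and the 13945 protein-coding genes with a summit within 500 bp of a TSS, in percent, as pooled regions are added from the highest signal down, on a log axis. The dashed line is the peak threshold at rank 3470, and both ribosomal curves lie above that of protein-coding genes from rank 174 on.

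The large subunit genes, the most similar family, gave a like picture with somewhat higher ranks. Peaks stood at 38 of 50 (76%, exact 95% interval 61.8 to 86.9, counting error only), against 25 of 38 small subunit genes (65.8%). The median rank was 528 against 733, the median signal 378 against 312, and the share of summits within 50 bp of a TSS 94.7% against 92%. In the plot of genes reached by rank, the 100 highest regions held neither family, and the 500 highest reached 6 small subunit genes and 15 large subunit genes. By rank 1000 they reached 14 of 38 and 27 of 50, and by rank 10000 they reached 30 and 45. No test of the difference between the families was made, since both were chosen with results known.

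Other genes of the pathway were set beside them. The genes Rack1 and sta, which encode small subunit proteins with other names, both had a peak, at rank 456 with the summit 4 bp upstream of the TSS and at rank 1663 with the summit 4 bp downstream. Of the stalk proteins, 2 of 3 had a peak. Mitochondrial small subunit genes had peaks at 4 of 26, with 0 summits within 50 bp of the TSS. These were mRpS23 (rank 40, 373 bp upstream), mRpS10 (rank 60, 132 bp upstream), mRpS2 (rank 1346) and mRpS7 (rank 3080). Factors that load the small subunit for initiation had peaks at 3 of 21 genes, eIF1 (347 bp upstream, in the peak at the start site of RpL28), eIF2beta (288 bp upstream) and eIF3h (295 bp downstream). Factors of small subunit assembly had peaks at 2 of 18, NHP2 and Nopp140. The shares of the last 3 lists, 15.4%, 14.3% and 11.1%, were near the 12% of protein-coding genes.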

How the data were processed

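Regions of CG4707-GFP ChIP-seq were deposited by the authors for each of 2 replicates and for the pooled reads, with a thresholded list, per the deposited file listing. The signal of each region is a score of the authors' caller, deposited with no description of its unit, and was used only within a list. Other deposited columns give the summit as an offset from the start of the region. The labels name dm6 as the genome build. Neither aligner nor caller is given in the sources used. The depth of each library is unknown, so no interval covers sampling of reads.

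Summits were placed on TSSs of Ensembl release 115, and a gene was counted when a summit lay within 500 bp of any TSS, with the region of highest signal taken. Distances are to the nearest TSS of the gene, negative upstream. Shares have exact Clopper-Pearson 95% intervals, which cover counting error only. No p-value was computed, because there is 1 group. Motif matches on either strand were counted within 100 bp of the canonical TSS, and matches to the initiator within 10 bp on the strand of the gene. Windows of 36 and 50 bases within 200 bp of the TSS were looked up in the genome. Proteins of paralogs were translated from the annotation and aligned globally. All 38 members were analysed and counted, and some genes are not reported by name here or drawn. The others are named, with full values for the 10 of highest signal, those without a peak, paralogs and those that share a peak. Outside the family, genes of the same peak and bound genes of related lists are named. The members, lists, places in the subunit and motifs were chosen with earlier results of these data known. Alternatives were the most upstream TSS, windows of 250 or 1000 bp, the upper 50% of the peaks, each replicate alone, the nearest gene only, an interval that covers a TSS, and 50 bp or summit-centred sequence windows. Tested on simulated data, 200 of 200 summits planted at genes were assigned and 0 distant ones. This checks the assignment rule as coded and not which gene a summit in the data belongs to. The tools were Biopython 1.88, scipy 1.17.1, pandas 2.3.3, numpy 2.4.6 and matplotlib 3.10.9 under Python 3.11.15.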

Additional observations from a re-analysis of the deposited data

How the results depend on the processing

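Of 41 recomputed values, 29 stayed within the limits set for each kind of value (1.5 times for counts, 1 SD between the replicates for medians and shares). That SD comes from the same single-replicate values that it judges in the settings without a replicate. The total is thus a tally and not a measure of robustness. The counts of genes with a peak (20 to 27) and with a pooled region (32 to 36) stayed within them under every alternative run, and over the replicates taken alone ranged from 22 to 27 and from 33 to 35. The median rank of 733 became 813 at 1000 bp and 750.5 to 833 in single replicates. The median distance of 2 bp became 7 bp at the most upstream TSS and 1 to 6 bp in single replicates. The 92% of summits within 50 bp became 85.2% at 1000 bp, 72% at the most upstream TSS and 88.9% to 90.9% in single replicates. Within 50 bp of the TSS, DRE was left at 4 genes, ACAGTG at 1, GAGAG at 1 and TATAAA at 0. Within 100 bp the counts had been 13, 5, 5 and 5. The shares of protein-coding genes within 50 bp were 5.29%, 5.54%, 11.6% and 17.0% in the same order. Within 100 bp they were 7.50%, 9.72%, 22.8% and 28.9%. Why the member counts fell was not tested. The initiator with its C exactly at the TSS was left at 1 gene. That setting and the count over any TSS were chosen after the data were seen. No paired analysis was possible because there is 1 group. With 2 replicates and no depth, the precision of a single rank is known only from the gap between the replicates.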
